A study of Mus musculus with 20 samples.

Results

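The muscle myosin light chains are the small subunits bound to the neck of sarcomeric myosin. They were taken as all probe sets whose platform gene symbol was Myl1, Mylpf, Myl2, Myl3 or Myl4, which gave 5 genes of the 8221 named on the array and 7 probe sets of 12654. Of these 7 probe sets, 6 were bright enough to be tested, and the second probe set of Myl4 was not. The samples were 8-week-old mouse muscles in 4 groups of 5 one-colour Affymetrix arrays each: leg muscle of mdx mice (leg MDX), leg muscle of control mice (leg control), extraocular muscle of mdx mice (EOM MDX) and extraocular muscle of control mice (EOM control). Mdx mice carry a nonsense mutation in Dmd, the dystrophin gene, in every tissue, and are a model of Duchenne muscular dystrophy. Controls are wild type by the series title, and the strain of either is not given in the labels. The extraocular muscles move the eye. The labels name the control leg samples as gastrocnemius and soleus and the mdx leg samples only as leg muscle, so the muscle sampled and the genotype cannot be told apart in leg. Control and mdx arrays also carry different descriptions in the labels, and any difference in handling cannot be told apart from genotype. The labels do not say whether the arrays of a group came from separate animals, so the p-values describe the spread among these arrays, part of which may be technical.

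Each myosin heavy chain binds 1 essential and 1 regulatory light chain. Myl1 encodes the essential and Mylpf the regulatory light chain of fast fibres. Myl3 encodes the essential and Myl2 the regulatory light chain of slow fibres and of the heart ventricle, and Myl4 encodes the essential light chain of embryonic muscle and of the heart atrium. Phosphorylation of a regulatory light chain by a calmodulin-dependent kinase increases the force of contraction at a given calcium level. Limb muscles hold slow and fast fibres in proportions that differ between muscles, with the soleus rich in slow fibres, and extraocular muscle has its own fibre types, some with more than 1 myosin heavy chain.

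The genes are given in the GRCm38.p6 build. Myl1 spans chr1:66924295-66947932, Mylpf chr7:127208848-127214288, Myl2 chr5:122092724-122113473, Myl3 chr9:110763678-110769802 and Myl4 chr11:104546017-104587215. The 250 bases before the start of the slow essential and slow regulatory genes are shown because their signals moved together from array to array within groups. The Pearson r of their deviations from the group means was 0.99 over 20 arrays and 0.78 without leg control 4. Both windows come from RefSeq, run 5′ to 3′ on the plus strand, and mark matches to searched motifs in capitals. The window of Myl3 is chr9:110763428-110763677, and that of Myl2, for the first of the 2 starts listed, is chr5:122092474-122092723.
Myl3: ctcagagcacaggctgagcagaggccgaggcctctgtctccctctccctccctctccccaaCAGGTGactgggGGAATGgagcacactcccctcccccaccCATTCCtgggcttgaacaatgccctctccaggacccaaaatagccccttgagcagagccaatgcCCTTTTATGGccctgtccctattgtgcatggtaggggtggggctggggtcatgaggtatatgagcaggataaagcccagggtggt
Myl2: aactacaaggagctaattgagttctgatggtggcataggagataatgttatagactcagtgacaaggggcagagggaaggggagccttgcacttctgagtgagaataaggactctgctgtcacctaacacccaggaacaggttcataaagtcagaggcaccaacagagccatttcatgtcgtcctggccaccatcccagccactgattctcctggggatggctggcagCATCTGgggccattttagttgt
The motifs were the E-box (CANNTG), which MyoD family factors bind, the M-CAT element (CATTCC), which TEAD factors bind, the CArG box, which serum response factor binds, and the MEF2 site. Both strands were searched. In the Myl3 window the E-box CAGGTG began 189 bases before the start, M-CAT elements 177 and 149 bases before it, and the CArG box CCTTTTATGG 85 bases before it. The Myl2 window held 1 E-box, CATCTG, 22 bases before the start, and none of the other motifs. The window of the second listed Myl2 start held 2 E-boxes, that of Myl1 an E-box and an M-CAT element, and that of Mylpf an E-box, while 0 matches to any of the 4 motifs lay in the window of Myl4. Over the 32851 promoter windows of the same length, 66.2% held an E-box, 12.6% an M-CAT element, 2.92% a MEF2 site and 1.47% a CArG box. These matches are a description of the letters in the windows.

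The array labelled leg control 4 stood apart from its group in slow fibre, gland and position genes, and the light chain results are given with it and without it. By mean correlation with its group it was not the least alike. That correlation was 0.892, 0.917, 0.919, 0.906 and 0.903 for leg control arrays 1 to 5. On leg control 4 the signals of the slow fibre genes Myl2, Myl3 and Tnnc1 were all under the floor of 50. For 8 of 10 slow fibre genes, Myl2 and Myl3 among them, it lay below all 4 other leg control arrays, against 1 of 10 fast fibre genes (Myl1). Over all tested probe sets it lay below the other 4 at 16.8%. These genes were counted with its values known. It also had a summed signal of 10391 for 6 salivary and lacrimal gland markers, against 653 to 1406 on the other leg control arrays and 622 to 956 on leg MDX arrays; EOM MDX arrays had 3578 to 5887 and EOM control arrays 4229 to 5408. Most of that sum was Bpifa2, a secreted protein of salivary glands, at 8892 on leg control 4, where EOM MDX arrays averaged 3834 ± 492 and EOM control arrays 4235 ± 429 (SD, n = 5 each), and Pip added 868. The other 4 gland markers on leg control 4 did not exceed the highest of the other leg controls. Of 7 listed genes of limb and extraocular position, the 4 on the array summed to 786 on leg control 4. The sums were 1567 to 2165 on the other leg controls, 1194 to 1615 on leg MDX, 803 to 1240 on EOM MDX and 857 to 1446 on EOM control arrays. Of these genes, Hoxd8, a homeobox gene of the trunk and limb axis, had a signal of 94.9 on leg control 4. EOM control arrays averaged 191 ± 22.8 (SD, n = 5) for Hoxd8 and the other 4 leg control arrays 1088 ± 280 (SD, n = 4). The fast fibre calcium buffer Pvalb, at 15888 on leg control 4, lay in the range of leg and not of extraocular arrays. What tissue leg control 4 held was not tested. Its low Myl2 and Myl3 were among the values that marked it. Leaving it out raised the leg control means of both genes and narrowed their spread. The tests of these genes without it are therefore not independent of that choice.

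On each array, 47.22% to 51.97% of probe sets were at 200 or more. Skeletal muscle markers were bright in every group: the 4 of 6 that the array holds summed to between 19111 and 38592 on leg MDX arrays, 24286 and 70197 on leg control arrays, 36371 and 56089 on EOM MDX arrays, and 29620 and 45320 on EOM control arrays. Of 5 heart markers, Myl7, Myh6 and Ryr2 were too dim to be tested, while Nppa and Tnni3 were tested. The 5 summed to between 821 and 1240 on EOM MDX arrays, against 585 to 966 on leg MDX arrays, and to between 1026 and 1446 on EOM control arrays, against 444 to 943 on leg control arrays. The 10 macrophage markers summed to between 35105 and 44816 on leg MDX arrays, against 3071 to 4525 on leg control arrays, and to between 5702 and 12059 on EOM MDX arrays, against 5153 to 7504 on EOM control arrays. The ratio of the 3′ to the 5′ actin control probe set ran from a log2 of -3.61 to -0.22 on leg MDX arrays, against 0.06 to 0.94 on leg control arrays. The same ratio for Gapdh overlapped, at -2.70 to -2.38 on leg MDX arrays, against -3.65 to -1.27 on leg control arrays. The part of these differences in the results below was not tested. In whole muscle, fewer fibres of a type and less RNA per fibre cannot be told apart.

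**Figure D1:**
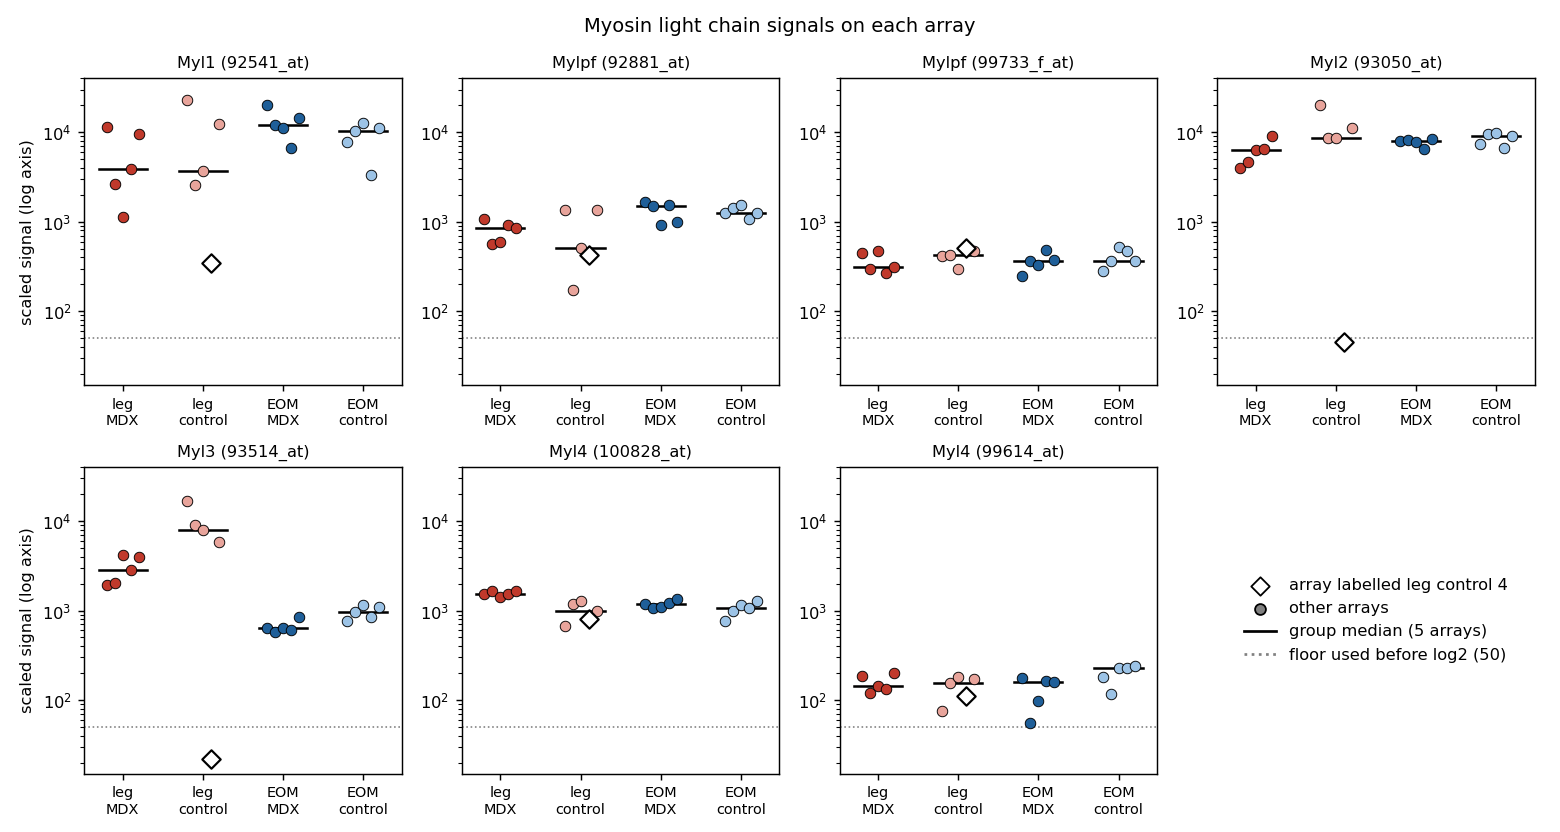
Scaled signal (log axis) of each myosin light chain probe set on each of the 20 arrays, 5 per group, with the median of each group of 5 as a bar and the floor of 50 as a dotted line. Leg control 4 is drawn as a diamond: it lies at 45.2 for Myl2 and 22.0 for Myl3, where the other 19 arrays start at 4034 and 575.

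Myl3, the slow essential light chain, separated the muscles and, within leg, the genotypes more widely than any other member once leg control 4 was left out. Its scaled signal was 1912, 2021, 4138, 2870 and 3968 on leg MDX arrays 1 to 5, against 16594, 8986, 8021, 22.0 and 5770 on leg control arrays 1 to 5. It was 638, 575, 637, 606 and 855 on EOM MDX arrays, against 768, 960, 1141, 836 and 1094 on EOM control arrays. All leg MDX arrays thus lay below the 4 other leg controls and above every extraocular array, and the EOM MDX and EOM control arrays overlapped only through EOM MDX 5.

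In leg muscle Myl3 averaged 2982 ± 1048 in MDX (SD, n = 5) and 9843 ± 4698 in the 4 controls without leg control 4 (SD, n = 4). It fell 3.22-fold in MDX in that fit (log2 difference -1.69, 95% interval -2.22 to -1.15, limma adjusted p = 6.95e-05). Over all tested probe sets, 6.07% were called lower in that fit and 6.76% were lower without overlap. With leg control 4 the control mean was 7879 ± 5987 (SD, n = 5), the largest control signal was 754 times the smallest, and the log2 difference was -0.18 (95% interval -2.14 to 1.77, limma adjusted p = 0.922). That fit sets the 22.0 of leg control 4 to the floor of 50.

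In extraocular muscle Myl3 averaged 662 ± 111 in MDX and 960 ± 160 in controls (SD, n = 5 each). The log2 difference was -0.53 and did not pass (limma adjusted p = 0.999, and 0.933 without leg control 4, which enters only through the shared spread). Without leg control 4 its interval was -1.04 to -0.03, with an unadjusted limma p of 0.0389. The leg effect minus the EOM effect was -1.15 without leg control 4 (95% interval -1.89 to -0.42, limma adjusted p = 0.0561) and 0.35 with it (adjusted p = 0.928), so the effects were not shown to differ between the muscles.

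Between the muscles, Myl3 was 9.60-fold lower in EOM control than in leg control without leg control 4 (log2 difference -3.26, 95% interval -3.80 to -2.73, limma adjusted p = 1.11e-08). All EOM control arrays lay below the 4 leg controls, at a background of 6.77% of probe sets called lower and 7.13% lower with no overlap. With leg control 4 the log2 difference was -1.76 (limma adjusted p = 0.225). In mdx mice all 5 EOM MDX arrays lay below all 5 leg MDX arrays whether or not leg control 4 was in the fit, and the fold was 4.32. That difference of -2.11 passed without leg control 4 (limma adjusted p = 1.80e-06) and with only the 2 mdx groups in the fit (1.35e-05). It did not pass in the fit of all 20 arrays, where leg control 4 widens the shared spread (adjusted p = 0.132). The background there was 18.1% of probe sets called in either direction with or without leg control 4, with 8.87% called lower without it and 7.02% lower with no overlap.

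Myl2, the slow regulatory light chain, was lower in MDX than in control leg muscle without leg control 4 and ranged from 6578 to 9786 over the 10 extraocular arrays. Its signal was 4034, 4669, 6338, 6540 and 9000 on leg MDX arrays 1 to 5, against 20215, 8608, 8722, 45.2 and 11222 on leg control arrays 1 to 5. EOM MDX arrays had 7996, 8224, 7700, 6578 and 8469, against 7437, 9487, 9786, 6668 and 9173 on EOM control arrays. Leg MDX 5 lay above leg controls 2 and 3, so the leg groups overlapped, and the extraocular groups overlapped almost wholly.

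Without leg control 4, Myl2 averaged 6116 ± 1935 in leg MDX (SD, n = 5) and 12192 ± 5483 in leg control (SD, n = 4), and fell 1.94-fold (log2 difference -0.96, 95% interval -1.44 to -0.47, limma adjusted p = 0.00588). With leg control 4, where the control signals spanned 447-fold, the log2 difference was 0.61 (limma adjusted p = 0.727), and 17.9% of probe sets were called in either direction. Without leg control 1 and leg control 4 it was -0.68 (adjusted p = 0.0277). In extraocular muscle Myl2 averaged 7793 ± 736 in MDX and 8510 ± 1376 in controls (SD, n = 5 each), with a log2 difference of -0.12 (95% interval -0.57 to 0.34 without leg control 4; adjusted p = 0.999 with all arrays and 0.998 without it). The leg effect minus the EOM effect was -0.84 without leg control 4 (limma adjusted p = 0.141).

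Unlike Myl3, Myl2 was not called between the muscles in either genotype. The log2 difference of EOM control minus leg control was -0.44 without leg control 4 (95% interval -0.92 to 0.04, limma adjusted p = 0.221) and 1.13 with it (adjusted p = 0.491). That of EOM MDX minus leg MDX was 0.40 (95% interval -0.05 to 0.86, adjusted p = 0.236) without leg control 4 and had an adjusted p of 0.835 with all arrays. The difference between the 2 slow light chains also shifted between the muscles. The log2 signal of Myl3 minus that of Myl2 lay between -3.84 and -3.31 on EOM MDX arrays and between -1.21 and -0.62 on leg MDX arrays. On EOM control arrays it lay between -3.30 and -3.00, and on leg control arrays without leg control 4 between -0.96 and 0.06. On leg control 4 both genes were set to the floor of 50, so its difference cannot be read. Each probe set has its own brightness, so only the shift of this difference between groups can be read, and the EOM and leg ranges did not overlap in either genotype.

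**Figure D2:**
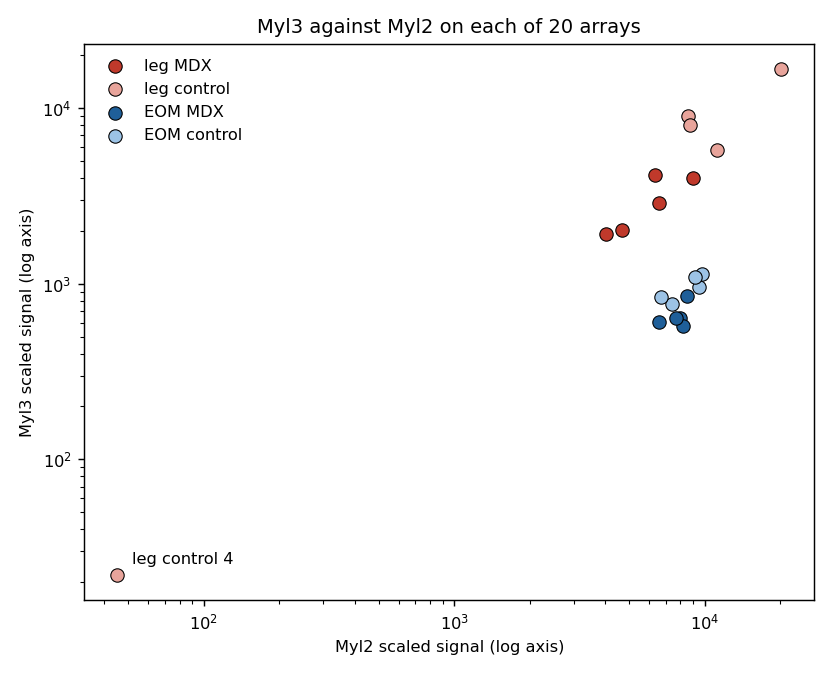
Scaled signal of Myl3 against that of Myl2 (log axes) on each of the 20 arrays, coloured by group. EOM arrays form a band well below the leg arrays in Myl3 at a like Myl2 signal, leg MDX arrays lie below the leg controls in Myl3, and leg control 4 lies alone at the lower left, at 45.2 for Myl2 and 22.0 for Myl3.

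Myl1, the fast essential light chain, varied widely within each leg group, and no comparison of it passed with all 20 arrays or without leg control 4. Its signal was 11544, 2620, 1122, 3916 and 9613 on leg MDX arrays 1 to 5, against 22801, 2563, 3700, 346 and 12524 on leg control arrays 1 to 5. EOM MDX arrays had 20022, 12106, 11238, 6737 and 14500, against 7726, 10259, 12579, 3334 and 11235 on EOM control arrays. The groups overlapped in every comparison, and the brightest leg control was 8.90 times the dimmest even without leg control 4. The brightest leg MDX array was 10.3 times the dimmest, while the extraocular groups spanned 2.97-fold in MDX and 3.77-fold in controls.

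Myl1 averaged 5763 ± 4557 in leg MDX (SD, n = 5) and 10397 ± 9391 in leg control without leg control 4 (SD, n = 4), a log2 difference of -0.79 (95% interval -2.09 to 0.52, limma adjusted p = 0.447). With leg control 4 the log2 difference was 0.09 (adjusted p = 0.954). EOM MDX arrays averaged 12920 ± 4864 and EOM control arrays 9026 ± 3644 (SD, n = 5 each), a log2 difference of 0.57 (limma adjusted p = 0.999, and 0.991 without leg control 4). The leg effect minus the EOM effect was -0.48 with all arrays and -1.35 without leg control 4 (limma adjusted p = 0.874 and 0.445). EOM MDX minus leg MDX was 1.54, with a 95% interval of 0.31 to 2.77 without leg control 4 (limma adjusted p = 0.0777, and 0.198 with all arrays). It passed without leg controls 1 and 4 (adjusted p = 0.0487). EOM control minus leg control was 1.06 with all arrays and 0.19 without leg control 4 (limma adjusted p = 0.408 and 0.889). Without leg control 4 that interval ran from -1.12 to 1.49.

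Mylpf, the fast regulatory light chain, is named for 2 probe sets, and the name of the second marks it as shared by a family of sequences. The first gave 1068, 569, 602, 912 and 846 on leg MDX arrays 1 to 5, against 1364, 175, 513, 426 and 1369 on leg control arrays. It gave 1648, 1519, 921, 1542 and 998 on EOM MDX arrays, against 1242, 1431, 1558, 1069 and 1264 on EOM control arrays. Leg control arrays 1 and 5 lay within the extraocular range, and leg control 2, not leg control 4, was the dimmest array.

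Mylpf averaged 1313 ± 188 in EOM control and 769 ± 559 in leg control (SD, n = 5 each), a log2 difference of 1.14 (95% interval 0.34 to 1.94). It passed in the fit of all 20 arrays (limma adjusted p = 0.0426), where 17.7% of probe sets were called in either direction and 10.3% higher. The call was lost without leg control 4 (log2 difference 1.02, adjusted p = 0.0937), without leg control 2 (0.70, adjusted p = 0.128) and in 6 of the other 18 fits that left out 1 array. In mdx mice the log2 difference of EOM minus leg was 0.73 (95% interval -0.07 to 1.53, limma adjusted p = 0.215 with all arrays and 0.218 without leg control 4), with 1326 ± 339 in EOM MDX and 799 ± 212 in leg MDX (SD, n = 5 each). With only the 2 mdx groups in the fit it passed (adjusted p = 0.0300).

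For the genotypes, the Mylpf log2 difference in leg was 0.40 with all arrays and 0.28 without leg control 4 (limma adjusted p = 0.542 and 0.71). In extraocular muscle it was -0.02 (95% interval -0.81 to 0.78, adjusted p = 1.00), and the leg effect minus the EOM effect was 0.41 (adjusted p = 0.772). The family probe set ranged from 269 to 470 on leg MDX, 296 to 509 on leg control, 247 to 481 on EOM MDX and 281 to 525 on EOM control arrays. Its log2 differences lay between -0.25 and 0.01 over the 5 comparisons and none passed. The 2 Mylpf probe sets disagreed from array to array: over the 19 arrays without leg control 4, their deviations from the group means had a Pearson r of 0.08, where those of Myl1 and the first Mylpf probe set had 0.71. Which transcripts either of the 2 probe sets reads was not tested.

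Myl4, the embryonic and atrial essential light chain, was the only member called between leg MDX and leg control with all 20 arrays. Its brighter probe set gave 1514, 1653, 1402, 1541 and 1636 on leg MDX arrays 1 to 5, against 675, 1189, 1278, 806 and 990 on leg control arrays. It gave 1176, 1053, 1092, 1221 and 1358 on EOM MDX arrays, against 769, 997, 1150, 1080 and 1276 on EOM control arrays. All 5 leg MDX arrays lay above every array of the other 3 groups, while the extraocular groups overlapped.

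Myl4 averaged 1549 ± 101 in leg MDX and 988 ± 253 in leg control (SD, n = 5 each) and rose 1.61-fold (log2 difference 0.69, 95% interval 0.36 to 1.01, limma adjusted p = 0.00342). The background was 10.7% of probe sets called higher and 8.38% higher with no overlap. Without leg control 4 the log2 difference was 0.62 (adjusted p = 0.0116), where 16.4% of probe sets were called in either direction, 10.3% higher, and 9.55% were higher without overlap. Without leg controls 1 and 4 the difference was 0.43 and did not pass (adjusted p = 0.0573). In extraocular muscle it was 0.18 (95% interval -0.15 to 0.50, adjusted p = 0.999 with all arrays and 0.991 without leg control 4), with 1180 ± 120 in MDX and 1054 ± 189 in controls (SD, n = 5 each). The leg effect minus the EOM effect was 0.51 (limma adjusted p = 0.218) and 0.45 without leg control 4 (adjusted p = 0.311).

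Between muscles, Myl4 had a log2 difference of -0.40 in EOM MDX against leg MDX, without overlap (limma adjusted p = 0.0887, and 0.0862 without leg control 4). Of all tested probe sets, 7.02% were lower without overlap in this comparison. Myl4 passed with only the 2 mdx groups in the fit (adjusted p = 0.0262). EOM control minus leg control was 0.11 with all arrays and 0.05 without leg control 4 (adjusted p = 0.699 and 0.887). The platform table gives no source sequence for this probe set, and the second Myl4 probe set did not follow it. The second lay between 118 and 198 on leg MDX, 74.7 and 182 on leg control, 55.2 and 177 on EOM MDX and 117 and 242 on EOM control arrays. In a fit without the filter its leg log2 difference was 0.21 (limma adjusted p = 0.821) and its extraocular difference -0.68 (adjusted p = 0.996), with overlap in both. Whether the brighter probe set reads Myl4 alone was not tested.

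**Figure D3:**
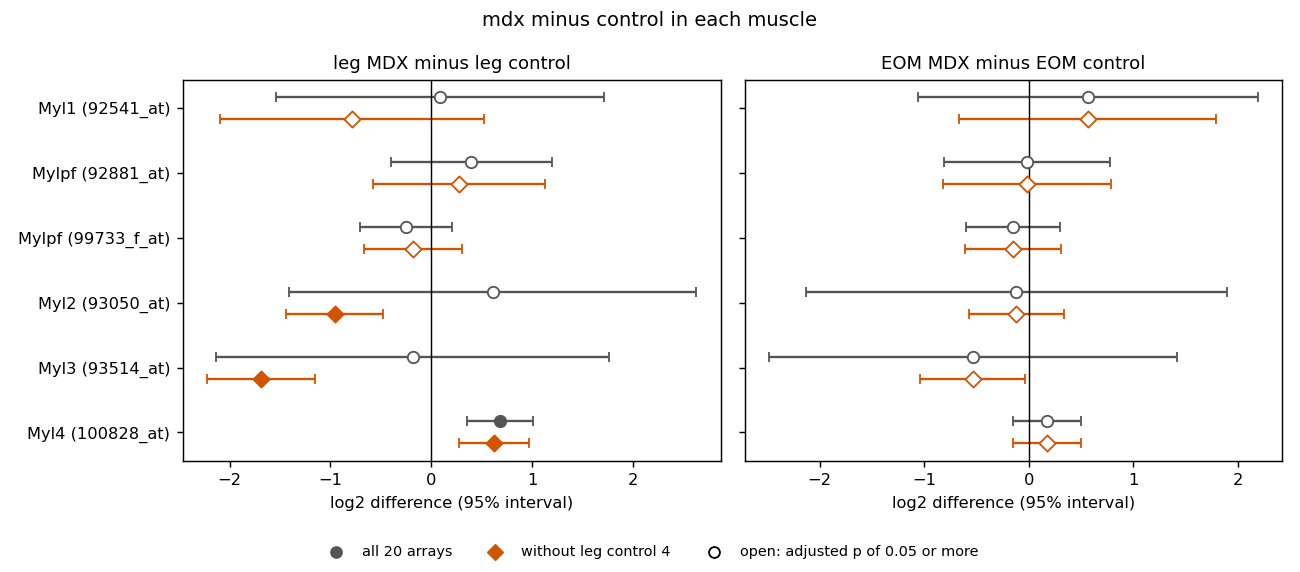
Log2 difference of MDX minus control for each tested myosin light chain probe set, leg at left and EOM at right, with 95% limma intervals, from all 20 arrays and from the 19 without leg control 4. In leg, Myl2 and Myl3 lie below 0 without leg control 4 and have intervals across 0 with it, Myl4 lies above 0 in both fits, and in EOM no adjusted p passed.

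**Figure D4:**
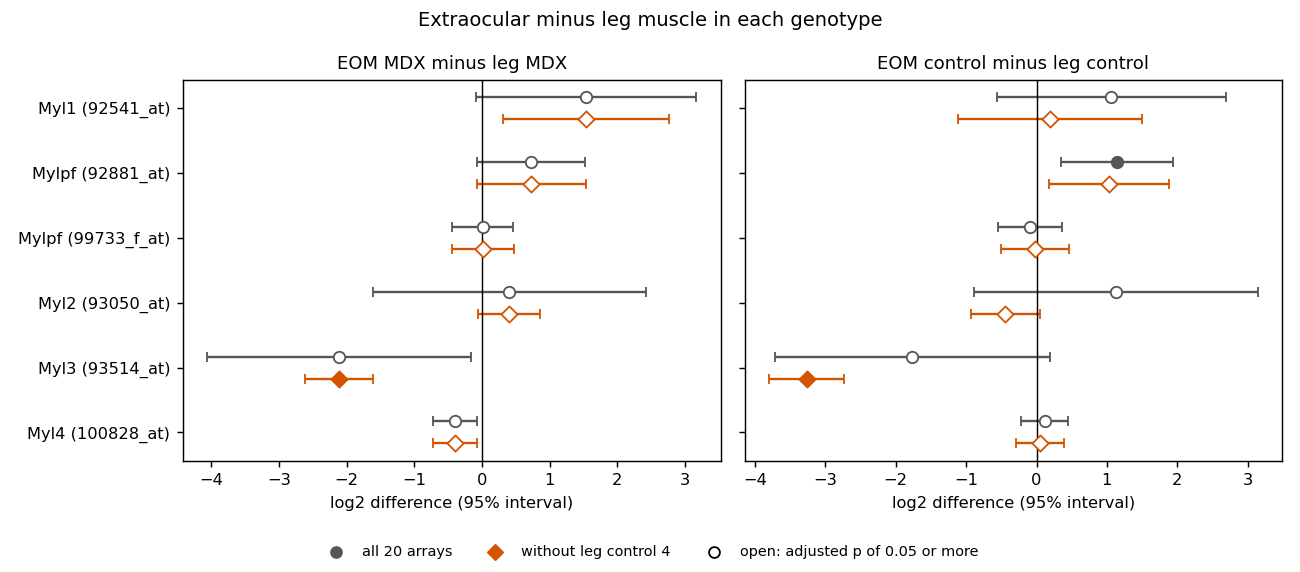
Log2 difference of EOM minus leg for each tested myosin light chain probe set, in MDX at left and in controls at right, with 95% limma intervals, from all 20 arrays and from the 19 without leg control 4. Myl3 is the lowest in both panels, at -2.11 in MDX and, without leg control 4, -3.26 in controls.

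Counted together, 1 of the 6 tested probe sets was called higher in leg MDX and 0 lower with all 20 arrays, where 17.9% of all tested probe sets were called and 10.7% called higher. Without leg control 4, 1 was called higher and 2 lower, where 16.4% were called, 10.3% higher and 6.07% lower. Their median log2 difference was 0.24 with all arrays and -0.48 without leg control 4, beside -0.06 over all tested probe sets in both fits. In extraocular muscle 0 of 6 passed, at a background of 0.0833% of probe sets (6 of 7204), with a median of -0.07 beside -0.02 over all. Unadjusted limma p-values under 0.05 for MDX in extraocular muscle were 0 of 6 with all arrays and 1 of 6, Myl3, without leg control 4. For the difference of the 2 effects 0 of 6 passed with all arrays (Myl4 had an unadjusted p under 0.05) and 0 of 6 without leg control 4 (Myl2 and Myl3 had one). The background was 6.22% with all arrays and 6.37% without leg control 4. Between muscles in controls, 1 was higher (Mylpf) with all arrays and 1 lower (Myl3) without leg control 4, where 17.1% of probe sets were called. In mdx mice 0 were called with all arrays and 1, Myl3, without leg control 4, where 18.1% of probe sets were called in both fits. The comparisons share groups, so their counts are not independent.

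None of the other slow fibre contractile genes measured was called between leg MDX and leg control. Of 11 listed slow fibre genes, 8 were on the array and tested, and 0 of the 8 passed with or without leg control 4. Over all tested probe sets, 17.9% were called with all arrays and 16.4% without leg control 4. The median log2 difference of the 8 slow genes was 0.26 with all arrays and -0.15 without leg control 4, beside -0.06 over all tested probe sets in both fits. The values of single slow genes that follow are without it. Myh7, the slow myosin heavy chain, averaged 3422 ± 1521 in leg MDX (SD, n = 5) and 6854 ± 4937 in leg control without leg control 4 (SD, n = 4), with a log2 difference of -0.89 (limma adjusted p = 0.0516). Tpm3, slow tropomyosin, had -0.96 (adjusted p = 0.0695) and Tnnc1, the troponin C of slow and cardiac muscle, -0.50 (adjusted p = 0.294). Tnni1 and Tnnt1, the slow troponins I and T, had -0.12 and -0.13 (adjusted p = 0.777 and 0.679). Casq2, a slow and cardiac calsequestrin, went the other way, with 0.34 (adjusted p = 0.237). The slow calcium pump Atp2a2 had -0.16, and Csrp3, also in the list, -0.15.

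Between the muscles, several slow genes went the other way from Myl3. In mdx mice without leg control 4, 5 of the 8 were called higher in EOM and 0 lower, where 18.1% of all tested probe sets were called in either direction. Tnnc1 averaged 6004 ± 337 in EOM MDX and 2587 ± 845 in leg MDX (SD, n = 5 each; log2 difference 1.28, limma adjusted p = 0.00285). Tpm3 had a log2 difference of 1.49 (adjusted p = 0.00294), Tnni1 0.85 (0.00856), Tnnt1 0.61 (0.0137) and Myh7 0.89 (0.0355). With all 20 arrays only Tpm3 was called (adjusted p = 0.0223). In controls without leg control 4, Casq2, the calsequestrin of slow and cardiac muscle, and Tnnt1 were higher in EOM (log2 differences 0.97 and 0.53, adjusted p = 0.000847 and 0.0447), and Atp2a2, the slow and cardiac calcium pump, was lower (-0.74, adjusted p = 0.0294). With all arrays 2 were higher, Casq2 and Tnnt1, and 0 lower. In this comparison 17.7% of all tested probe sets were called with all arrays and 17.1% without leg control 4. Myh7 averaged 5668 ± 542 in EOM control (SD, n = 5) and 6854 ± 4937 in those 4 leg controls, a log2 difference of -0.06 (adjusted p = 0.934).

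Of 12 listed fast fibre genes, 10 were on the array and 8 tested, and 0 of the 8 were called between MDX and control in either muscle, with or without leg control 4. The share called over all tested probe sets was 17.9% in leg with all arrays and 16.4% without leg control 4. In extraocular muscle it was 0.0833% in both fits. Pvalb was called lower in EOM in both genotypes, at 5951 ± 334 in EOM control against 16578 ± 2563 in leg control (SD, n = 5 each; log2 difference -1.47, limma adjusted p = 2.73e-08, and -1.48 without leg control 4). In mdx mice Pvalb had a log2 difference of -1.23 (adjusted p = 3.62e-07) and Actn3, the fast fibre alpha-actinin, -0.82 (0.0111), while Myh4, the type IIB heavy chain, had 1.01 (0.0293) and Casq1, the fast calsequestrin, 1.84 (0.0129). All 4 passed in mdx mice without leg control 4 as well, with Myh4 at an adjusted p of 0.0323. Between the muscles in mdx mice, 18.1% of all tested probe sets were called in both fits. In controls the share was 17.7% with all arrays and 17.1% without leg control 4. Myh1, the type IIX heavy chain, averaged 16422 ± 4125 in EOM MDX and 13972 ± 4557 in leg MDX, and 14011 ± 1985 in EOM control and 13898 ± 2074 in leg control (SD, n = 5 each); none of its comparisons passed. The heavy chain of type IIA fibres, Myh2, was too dim to be tested, with group means between 43.9 and 75.5, and Myh13, the extraocular heavy chain, has no named probe set here.

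**Figure D5:**
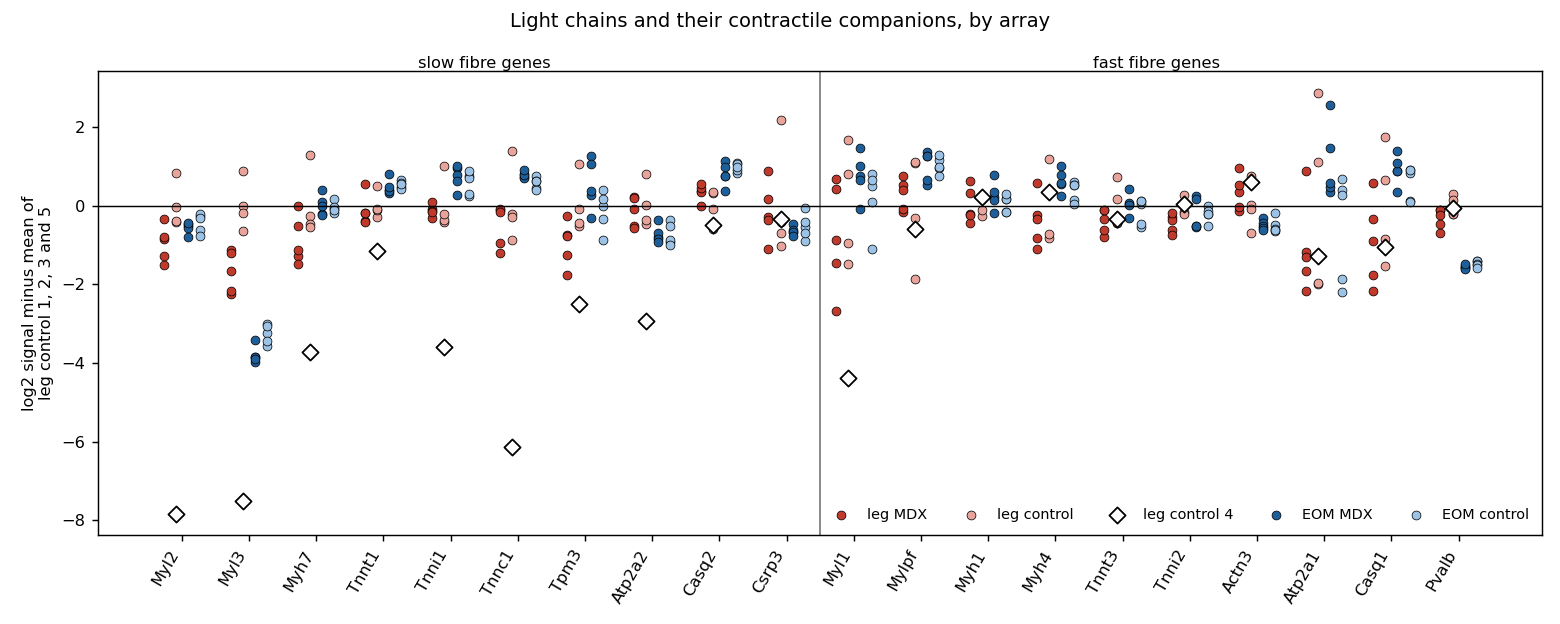
Log2 signal of each slow (left) and fast (right) fibre gene on each array, minus the mean of leg controls 1, 2, 3 and 5, with leg control 4 as a diamond. Leg control 4 lies lowest for Myl2 (-7.84), Myl3 (-7.51) and Tnnc1 (-6.13), within 0.61 of 0 for 7 of 10 fast genes and at -4.38 for Myl1. The EOM arrays of both genotypes lie below all leg arrays other than leg control 4 for Myl3, and below all leg arrays for Pvalb.

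Among 7 developmental and cardiac contractile genes, 5 were tested and 1 was called in leg MDX. That comparison called 17.9% of all tested probe sets with all arrays and 16.4% without leg control 4. Tnnt2, the cardiac troponin T that embryonic skeletal muscle also makes, averaged 752 ± 113 in leg MDX and 160 ± 22.8 in leg control (SD, n = 5 each; log2 difference 2.23, limma adjusted p = 2.88e-09, and 2.16 without leg control 4). The effect in leg exceeded that in EOM by 1.93 (adjusted p = 1.67e-05), and by 1.86 without leg control 4. The embryonic heavy chain Myh3 and the perinatal heavy chain Myh8 had log2 differences of -0.83 and -0.17 in leg (adjusted p = 0.116 and 0.640, and 0.144 and 0.891 without leg control 4). Myh8 was higher in EOM MDX than in leg MDX by 0.76 (adjusted p = 0.0137, and 0.0116 without leg control 4).

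Of 5 listed light chains of smooth muscle and non-muscle cells, 4 were on the array, 3 were tested and 2 were called higher in EOM in both genotypes. With all arrays, 18.1% of all tested probe sets were called between the muscles in mdx mice and 17.7% in controls. Myl6b, an essential light chain of slow skeletal muscle and non-muscle cells, averaged 1847 ± 353 in EOM MDX and 741 ± 91.5 in leg MDX, and 1865 ± 325 in EOM control and 705 ± 219 in leg control (SD, n = 5 each). Its log2 differences were 1.31 and 1.44 (limma adjusted p = 1.01e-05 and 3.44e-06), opposite in sign to those of Myl3. Myl9, the smooth muscle regulatory chain, had 0.62 and 0.50 (adjusted p = 0.0109 and 0.0426). Both passed in both genotypes without leg control 4 too, with control log2 differences of 1.33 for Myl6b and 0.54 for Myl9. The smooth muscle markers summed to between 7020 and 10314 on EOM MDX arrays, against 3070 to 4307 on leg MDX arrays, and to between 5359 and 7918 on EOM control arrays, against 1760 to 4123 on leg control arrays; their part in these differences was not tested.

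Of 11 listed genes of light chain phosphorylation, 4 were on the array and 2 tested. Mylk, the smooth muscle and non-muscle light chain kinase, was higher in EOM by 1.07 in MDX and 0.81 in controls (log2, limma adjusted p = 7.39e-05 and 0.00137, and 0.000102 and 0.00233 without leg control 4). Ppp1cb, a catalytic subunit of myosin phosphatase, had a log2 difference of -0.35 in leg MDX (adjusted p = 0.0234, and 0.0551 without leg control 4).

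Of 18 listed transcription factors, 14 were tested. In leg MDX, Myog, the myogenic factor of differentiating muscle cells, rose by a log2 difference of 1.54 (1547 ± 270 in MDX and 557 ± 225 in controls, SD, n = 5 each; limma adjusted p = 0.000443), and Six4, a homeobox factor of muscle genes, fell by 0.77 on the log2 scale (adjusted p = 0.0145). Both passed without leg control 4 (adjusted p = 0.00162 and 0.0376), and the other 12 did not pass. Over all tested probe sets, 17.9% were called in leg with all arrays and 16.4% without leg control 4. Between muscles, 3 factors were higher and 1 lower in EOM MDX than in leg MDX, and 2 higher and 0 lower in EOM control than in leg control. The share of all tested probe sets called there with all arrays was 18.1% in mdx mice and 17.7% in controls. Tbx15, a T-box factor of fast glycolytic fibres, and Ppargc1a, the coactivator of mitochondrial and slow fibre genes, were higher in EOM in both genotypes. Tbx15 had log2 differences of 1.87 in MDX and 1.71 in controls (adjusted p = 4.15e-05 and 0.000133), and Ppargc1a had 1.07 and 1.08 (adjusted p = 0.0158 and 0.0152). Both passed in both genotypes without leg control 4, with control log2 differences of 2.01 for Tbx15 and 1.15 for Ppargc1a. On leg control 4 the signal of Tbx15 was 2629, where the other leg controls averaged 926 ± 158 (SD, n = 4) and EOM control arrays 3771 ± 841 (SD, n = 5).

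The genes whose signal most resembled each light chain were ranked by Pearson r of log2 signal over all 20 arrays, among tested genes with 1 symbol. The correlations are descriptions over arrays that share groups and, in 1 case, an array that stands apart in slow fibre genes. Myl1 was most like Tnni1 (r = 0.85), Rnpepl1 (0.83) and Acta1 (0.81), and without leg control 4 most like Pkm (0.94), Eno3 (0.91) and Myh4 (0.90). Mylpf was most like Casq2 (0.85), Fgf4 (0.79) and Mrps25 (0.77), and without leg control 4 most like Casq2 (0.84), Ldha (0.80) and Maz (0.78). Myl2 was most like Tnnc1 (0.93), Myh7 (0.90) and Tnni1 (0.90), but the Spearman rho of these was 0.40, 0.58 and 0.42. Over the 19 arrays without leg control 4, Myl2 was most like Myh7 (0.81), Rhou (0.79) and Banf1 (0.79). Tnnc1 and Tnni1 were no longer among the genes named as nearest to it.

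Myl3 was most like Atp2a2 (0.86), Hbegf (0.83) and Sim2 (0.83), and without leg control 4 most like Ubxn1 (0.92), Ube2g1 (0.92) and Ankrd2 (0.91). By deviations from the group means over 20 arrays, Myl2 and Myl3 were each other's nearest gene (r = 0.99), followed for both by Tnnc1 (0.97 with Myl2 and 0.99 with Myl3). By deviations over the 19 arrays without leg control 4 the r between Myl2 and Myl3 was 0.78, the gene nearest to Myl3 was Tnnc1 (0.89) and that nearest to Myl2 was Tpm3 (0.87). Myl4 was most like Col3a1 (0.87), Fap (0.87) and Col5a2 (0.86), a fibrillar collagen chain, a fibroblast surface protease and another fibrillar collagen chain. Leaving out leg control 4, it was most like Actg1, a cytoplasmic actin (0.94), Fap (0.89) and Col5a2 (0.88). By deviations over 20 arrays Myl4 was most like Gng12 (0.83), Postn (0.81) and Fbxo38 (0.80). Myl4 and the macrophage markers were both highest on leg MDX arrays, and the part of non-fibre cells in the Myl4 difference was not tested.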

How the data were processed

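Each array's file value is the deposited intensity of a probe set on a linear scale, already scaled by the authors, since every array had a 2% trimmed mean of 1500.1. The software behind it is not given in the sources read. Each array was rescaled to a 2% trimmed mean of 500 over the 12588 non-control probe sets; signals in the text are on that scale. For tests a floor of 50 was applied before log2, so that folds of dim probe sets are understated. The 7204 probe sets at 200 or more on at least 5 arrays were tested.

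Linear models over all tested probe sets were fitted with limma 3.58.1 (R 4.3.3; eBayes with trend) to 4 groups and no covariate, on 20 arrays (16 residual degrees of freedom) and on 19 without leg control 4 (15). Benjamini-Hochberg adjustment ran within each of the 5 contrasts, at 0.05. Alternatives were other scalings, floors, filters, variance models and groupings, a replicate block, and leaving out arrays. Same-numbered arrays of different groups had deviations correlated between -0.08 and 0.23, so the numbers were not treated as pairs. No arrays had identical values. The number of arrays limits the precision. The fit was tested on simulated data.

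Genes come from the platform annotation, which gave 1 symbol for 10298 probe sets, several for 363 and did not list 1993, and positions from a RefSeq table matched by gene identifier. The list of probe sets later withdrawn by the maker was not used here. All member probe sets are named; each light chain's 3 most similar genes, up to 4 genes per list and comparison by smallest adjusted p, and the sarcomeric heavy chains are named by rule. Other genes were named after their values were seen. The members and lists were chosen with earlier results of these data known.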

Additional observations from a re-analysis of the deposited data

Results flagged for a closer look

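On leg control 4 the signal of Myl2 was 45.2, where the other 4 leg control arrays lay between 8608 and 20215. On the log2 scale, with the floor of 50 applied, the gap to the nearest array was 0.858 of the group's range. This lay above Dixon's critical value of 0.71 for 5 samples, and the gaps that follow are on the same scale. The signal of Myl3 on the same array was 22.0, where the others lay between 5770 and 16594, a gap of 0.818 of the range. On EOM MDX 5 the signal of Myl3 was 855, above the 575 to 638 of the other 4 EOM MDX arrays, a gap of 0.740 of the range. Chance alone marks about 1 in 20 groups in this way.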

How the results depend on the processing

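Of 600 log2 differences of light chain probe sets with 1 array left out, 559 kept their direction and side of the threshold, and of 349 under other settings 323 did. Leaving out 1 array gave 1 to 3 light chain probe sets called in leg MDX against leg control, 0 to 1 in EOM control against leg control and 0 to 1 in EOM MDX against leg MDX, and 3 to 11 probe sets of all in EOM MDX against EOM control. Leaving out leg control 1 and 4 together gave 2, 2 and 3 light chains in the first 3 of these. EOM MDX against leg MDX had 1 with array weights and 3 with only the groups compared, and EOM control against leg control had 0 with quantile normalization, no filter, no intensity trend, or only the groups compared. All probe sets called in EOM MDX against EOM control numbered 11 with a floor of 100 or array weights and 3 with no filter. Same-numbered arrays were not shown to be pairs; with a replicate block 1, 0, 0, 1 and 0 light chains were called in the 5 comparisons, and all probe sets called were 1351 in leg MDX against leg control and 7 in EOM MDX against EOM control.

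Signs turned as follows (log2 differences). In leg MDX minus leg control, leaving out 1 array gave Myl1 -0.79 to 0.72, Mylpf -0.042 to 0.70, Myl2 -0.96 to 1.21 and Myl3 -1.69 to 0.41; without leg control 1 and 4, Myl1 was -0.23 and Myl2 -0.68, and Myl3 was 0.054 on intensities as deposited and 0.052 with a floor of 20. In EOM MDX minus EOM control, Mylpf was -0.10 to 0.11 with 1 array left out and 0.0014 with quantile normalization. For the leg effect minus the EOM effect, leaving out 1 array gave Myl1 -1.35 to 0.16, Mylpf -0.026 to 0.71, its family probe set -0.23 to 0.017, Myl2 -0.84 to 1.32 and Myl3 -1.15 to 0.94, and leaving out leg control 1 and 4 gave Myl2 -0.57 and Myl3 -0.86. In EOM control minus leg control, leaving out 1 array gave the family probe set -0.21 to 0.030, Myl2 -0.44 to 1.72 and Myl4 -0.014 to 0.22; with array weights the family probe set was 0.021 and Myl4 -0.043, and without leg control 1 and 4 the family probe set was 0.0057, Myl2 -0.17 and Myl4 -0.14. In EOM MDX minus leg MDX, leaving out 1 array gave the family probe set -0.10 to 0.14.

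Several settings were applied to the 19 arrays without leg control 4, a choice made after seeing the data. Its low Myl2 and Myl3 were among the values that marked it. Most of the settings also share most arrays, so their agreement is not independent support. The 26 settings all called Myl3 and Myl2 lower in leg MDX (adjusted p up to 0.00413 and 0.0499) and Myl3 lower in EOM in both genotypes. They called Myl4 in leg in 25 (not without leg control 1, adjusted p = 0.0573), and the Myl3 difference of effects in 5 of 25 (0.0208 to 0.127). Myl1 reached 80.0% of its array's brightest signal; saturation was not tested. The cause of these changes was not tested.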
